A study of Mus musculus with 18 samples.

Results

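The BCL2 family sets the threshold of the mitochondrial pathway of apoptosis, and 10 of its genes were followed here in mouse heart from 10 min to 72 h after acute myocardial infarction (AMI). The 10 were picked by gene symbol and role from the 24419 symbols of the expression table, with no threshold on measured values. Earlier results of these data were known when they were picked. The antiapoptotic members were Bcl2, Bcl2l1 (which encodes BCL-XL), Mcl1 and Bcl2a1b (a mouse A1 gene). The BH3-only members were Bcl2l11 (BIM), Bbc3 (PUMA), Pmaip1 (NOXA) and Bid. The effectors were Bak1 and Bax.

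BAX and BAK form pores in the outer mitochondrial membrane, through which cytochrome c leaves and activates APAF1 and the caspases. BCL2, BCL-XL, MCL1 and A1 hold the effectors and the BH3-only proteins in a groove on their surface, and BH3-only proteins free or activate the effectors when a cell is stressed. Adult cardiomyocytes rarely divide, so the loss of these cells after ischemia is largely permanent, while short-lived leukocytes such as neutrophils depend on MCL1 and A1 to survive.

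The 18 mice were C57BL/6 males of 8 weeks, as the labels and the methods of the study state, and all were anesthetized with pentobarbital. In 5 groups of 3 mice the proximal left anterior descending coronary artery was ligated, and infarcted left ventricle was taken at 10 min, 1 h, 6 h, 24 h or 72 h. The control group of 3 mice is the sham group of the study. Its labels give no time, and every AMI group is compared with it. Effects of time since surgery and of time since ligation therefore cannot be told apart. The labels separate the mice only by group and number, so the p-values below measure the spread between these animals, and bulk tissue of an infarct holds whatever cells remain or have entered.

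Members of the family bind each other through a short BH3 stretch, shown here because it is the feature common to all 3 roles. The lines below give 48 bases of the coding sequence of each gene in which the pattern was found, 5′ to 3′, from the GENCODE M21 transcripts (mm10). Capitals mark the 6 codons that read leucine, 3 variable residues, glycine or alanine, and aspartate.

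Bcl2: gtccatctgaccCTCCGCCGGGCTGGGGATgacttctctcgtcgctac

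Bcl2l1: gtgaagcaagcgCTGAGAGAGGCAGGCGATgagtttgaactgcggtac

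Mcl1: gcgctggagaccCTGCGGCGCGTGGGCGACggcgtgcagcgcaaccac

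Bcl2l11: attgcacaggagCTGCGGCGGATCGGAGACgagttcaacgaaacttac

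Bbc3: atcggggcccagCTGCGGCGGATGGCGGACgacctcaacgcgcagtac

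Bid: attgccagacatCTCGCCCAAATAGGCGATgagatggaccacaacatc

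Bak1: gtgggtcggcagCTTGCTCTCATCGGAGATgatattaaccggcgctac

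Bax: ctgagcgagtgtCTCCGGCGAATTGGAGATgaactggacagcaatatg

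Each of these 8 coding sequences held the pattern once in frame, starting at codon 94 of 236 in Bcl2, codon 90 of 233 in Bcl2l1, codon 194 of 331 in Mcl1 and codon 150 of 196 in Bcl2l11. In Bbc3 it began at codon 141 of 193, in Bid at codon 90 of 195, in Bak1 at codon 76 of 209 and in Bax at codon 63 of 192. The fifth of these codons starts with gc in Bbc3 and with gg in the other genes. The 172 codons of Bcl2a1b held 0 matches to this pattern. Pmaip1 was not searched, so its absence from the lines says nothing about its BH3 stretch.

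Expression was given by the authors as FPKM, fragments per kilobase of transcript scaled to the mapped fragments of a library, so levels can be compared between genes per length. Read depth is unknown, since the table holds no counts. FPKM sums ran from 542418 to 600467 per mouse. Summed FPKM of 6 cardiomyocyte markers (Tnnt2, Myh6 and others) lay between 44340 and 47339 in sham and between 16358 and 20101 at 72 h, and none of these markers was at 0 in any group. The mouse numbered 3 at 24 h stood apart, with 996 summed FPKM of 6 neutrophil markers against 216 and 45.2 in its group. Member results whose significance or sign changed without this mouse are given below with that change. Other 24 h results are given with it.

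After AMI the members were first called above sham at different times. The antiapoptotic genes Bcl2l1, Mcl1 and Bcl2a1b and the effector Bax were above sham at 6 h (Bax by a small step whose call several other settings lost). The 6 h calls of Mcl1, Bcl2a1b and Bax were each lost without any 1 of the sham mice. Bid and Bak1 were added at 24 h, when Bbc3 and Pmaip1 lay just past the threshold. Bcl2l11, Bbc3, Pmaip1 and Bcl2 were added at 72 h, when Bcl2l1 lay within its sham range. The 72 h call of Bcl2 was lost under median-of-ratios and quantile scaling. This order is therefore one of calls at a threshold. A gene counted as called when its p by limma on log2(FPKM + 1), adjusted by Benjamini and Hochberg's method across every gene tested, was under 0.05. Log2 fold changes are differences between the group means of those log2 values. In bulk tissue, fewer cells of a type and less RNA per cell cannot be told apart.

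At 10 min 0 of the 10 members were called by limma, where 0.248% of 13297 genes were called higher and 0.0978% lower, and 0 members had an unadjusted p under 0.05 (14.7% of all genes). At 1 h 0 members were called, against 0.669% of all genes higher and 0.0526% lower, and 1 member, Mcl1, had an unadjusted p under 0.05 (12.6% of all genes). At 6 h 4 members were called higher and 1 lower, beside 11.6% and 16.8% of all genes. The median log2 fold change was 0.34 over the members and -0.08 over all genes.

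At 24 h 6 members were called higher and 0 lower, beside 26.2% and 11.4% of all genes, and 8 were higher with an unadjusted p under 0.05, as were 34.3% of all genes. With 1 mouse left out, the lowest 24 h log2 fold changes were 3.14 for Bcl2a1b, 1.32 for Bid and 0.97 for Bax. For Bcl2l1, Bak1 and Mcl1 they were 0.82, 0.66 and 0.49. At 72 h 9 members were called higher and 0 lower, beside 53.1% and 24.2% of all genes. The 9 include Pmaip1, which reached the 1 FPKM needed for testing only in 24 h and 72 h mice. A rise at 72 h was thus common among all genes of this tissue. The median log2 fold change at 72 h was 1.50 over the members and 0.29 over all genes. The members were picked with earlier results of these data known, so such contrasts with all genes are descriptions. The 5 comparisons with sham share the same 3 sham mice.

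Many of these changes were small. With a ratio of mean FPKM over 2 required besides the adjusted p, 2 members were higher at 6 h (Bcl2l1 and Bcl2a1b), 4 at 24 h and 7 at 72 h, where 5.72%, 10.3% and 26.4% of all genes passed. Between neighbouring times 0 members passed from 1 h to 6 h (4.84% of all genes), 2 from 6 h to 24 h (4.47%) and 2 from 24 h to 72 h (15.2%). Mcl1, Bcl2 and, at 6 h, Bax never reached that ratio.

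The deposited FPKM place the median gene 0.13 above sham at 24 h and 0.29 above sham at 72 h on the log2 scale. With median-of-ratios scaling the medians were 0.02 and 0.04, and with quantile normalization -0.06 and -0.12. The share of higher genes among all called at 72 h was then 52.5% and 42.5%, against 68.7% with FPKM as deposited. At 24 h it was 52.2% and 43.6%, against 69.8%. At 6 h it was 56.6% with median-of-ratios scaling, against 40.9%. Relative to the median gene, the 72 h log2 fold changes were 5.30 for Bcl2a1b, 2.14 for Bid, 1.44 for Pmaip1, 1.27 for Bax, 1.25 for Bbc3, 1.18 for Bak1, 0.79 for Bcl2l11, 0.41 for Mcl1, 0.19 for Bcl2 and -0.15 for Bcl2l1.

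**Figure D1:**
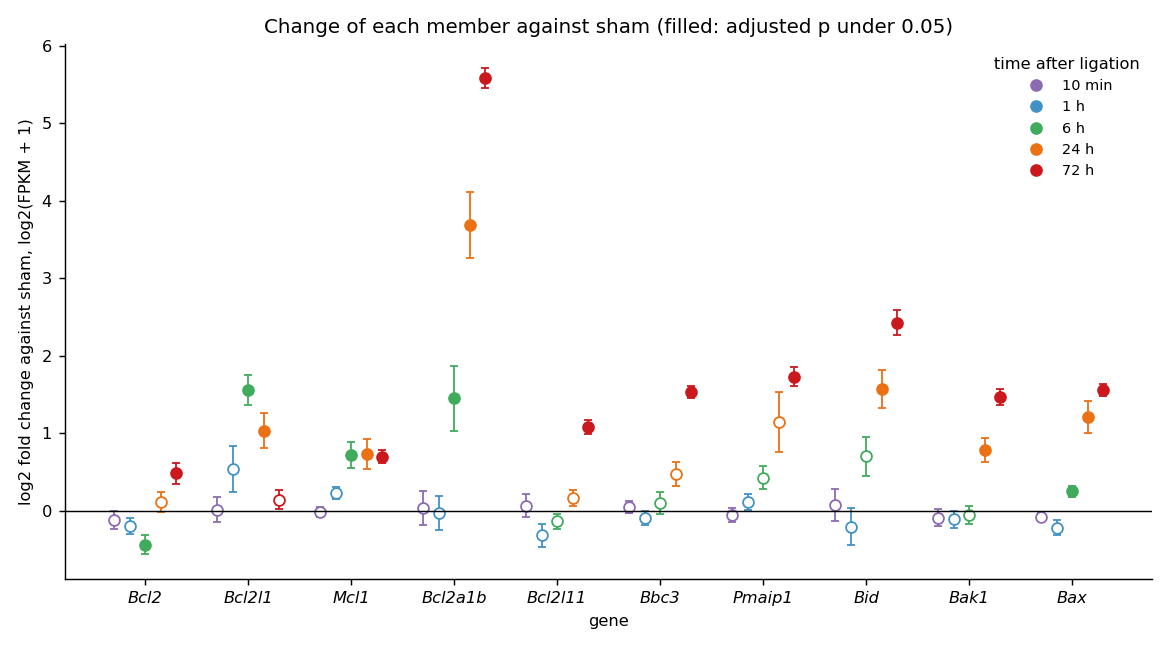
Log2 fold change of each member against sham on the log2(FPKM + 1) scale (y axis) for the 10 genes (x axis), with 1 point per time after ligation, bars of 1 standard error from limma (3 mice per group) and filled points for an adjusted p under 0.05. Bcl2a1b reached 5.58 at 72 h, and Bcl2l1 was 1.55 at 6 h and 0.14 at 72 h, a sign that turned to -0.17 under median-of-ratios and -0.05 under quantile normalization.

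Bcl2a1b, an A1 gene of the hematopoietic lineage and a known target of NF-kappaB, had the largest log2 fold change of the 10 at 24 h and 72 h. Its FPKM was 1.82, 1.77 and 1.14 in the 3 sham mice. The 10 min mice read 0.823, 2.19 and 2.05 and the 1 h mice 1.31, 0.931 and 2.54. The 3 early groups overlapped.

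At 6 h Bcl2a1b read 12.2, 2.54 and 6.26 FPKM. At 24 h it read 23.9, 19.5 and 68.4, and at 72 h 119, 109 and 139. From 6 h on every AMI mouse was above every sham mouse, and every 72 h mouse was above every 24 h mouse.

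Against sham, the log2 fold change of Bcl2a1b was 1.45 ± 0.42 (SE, n = 3 against 3) at 6 h with an adjusted p of 0.0407 by limma. It was 3.68 ± 0.43 at 24 h (adjusted p = 0.0031 by limma) and 5.58 ± 0.13 at 72 h (adjusted p = 1.28e-08 by limma). The 6 h call was lost without any 1 of the sham mice and without 6 h mouse 1 or 3, with limma adjusted p between 0.0578 and 0.124, and the log2 fold change fell to 0.99 without 6 h mouse 1. It was also lost without the filter on low FPKM (limma adjusted p = 0.0774).

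Between neighbouring times Bcl2a1b rose by 2.24 ± 0.57 from 6 h to 24 h (limma adjusted p = 0.0432) and by 1.90 ± 0.42 from 24 h to 72 h (limma adjusted p = 0.00914). The first of these was lost without any 1 of the 6 mice compared, with limma adjusted p between 0.0579 and 0.123, and with median-of-ratios or quantile scaling or no filter (limma adjusted p from 0.0781 to 0.08). Without 24 h mouse 3 it was 1.70.

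Bcl2a1b has near copies on the same chromosome, and how the authors' quantification divided shared reads among them is not stated, so each copy's level is uncertain. Bcl2a1b lies at chr9:89199209-89207827 and Bcl2a1a at chr9:88956900-88962419 on the plus strand, and Bcl2a1d at chr9:88723285-88731914 on the minus strand (GENCODE M21, mm10). Their coding sequences are each 516 bases long, and Bcl2a1a differs from Bcl2a1b at 11 bases (97.87% identity) and Bcl2a1d at 6 (98.84%). The first 90 coding bases are printed to show how few positions separate the copies, with capitals where a copy differs from Bcl2a1b.

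Bcl2a1b: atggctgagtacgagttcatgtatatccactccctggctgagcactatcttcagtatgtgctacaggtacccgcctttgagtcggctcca

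Bcl2a1a: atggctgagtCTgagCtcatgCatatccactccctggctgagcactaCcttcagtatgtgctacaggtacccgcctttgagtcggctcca

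Bcl2a1d: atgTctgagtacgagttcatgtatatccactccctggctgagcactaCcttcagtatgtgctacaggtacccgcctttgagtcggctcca

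Of the 718 windows of 100 bases in the Bcl2a1b transcript, 223 (31.06%) also occur in a copy. The reads of the study were paired and longer than these windows, so this is not the share of reads that fit several copies. Bcl2a1c, the shorter gene at chr9:114330135-114330578, was listed at 0 in all 18 mice. Bcl2a1a read 0.267, 0.147 and 0 FPKM in sham, 2.71, 1.78 and 13.0 at 24 h and 2.77, 4.01 and 4.27 at 72 h.

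From 24 h to 72 h Bcl2a1a differed by -0.18 ± 0.55 on the log2 scale (limma adjusted p = 0.816), and without 24 h mouse 3 by 0.53 in the other direction (limma adjusted p = 0.0449). Against sham it was called at 24 h (2.21 ± 0.55, limma adjusted p = 0.0223, and 1.50 without that mouse) and at 72 h (2.03 ± 0.15, limma adjusted p = 3.23e-06). Bcl2a1d was likewise called at 24 h (1.19 ± 0.33, limma adjusted p = 0.0295, and 0.78 without that mouse) and 72 h (1.12 ± 0.09, limma adjusted p = 8.52e-06). Both 24 h calls were lost without any 1 of the sham mice (limma adjusted p from 0.0688 to 0.0887). Bcl2a1a reached 1 FPKM only in mice from 6 h on and Bcl2a1d only at 24 h and 72 h, so both entered the test through the groups in which they were high.

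Bcl2a1b made up 89.3% ± 6.83 (SD, n = 3) of the summed A1 FPKM in sham, 85.3% ± 4.17 at 24 h and 96.0% ± 0.792 at 72 h. In 24 h mouse 3, the mouse with the high neutrophil markers, that share was 80.7%. With the copies summed in place of Bcl2a1b, the log2 fold change at 72 h was 5.53.

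The 186 bases upstream of the GENCODE start of Bcl2a1b and Bcl2a1a are nearly the same, and are printed because the copies are hard to separate there too. Both are on the plus strand of GRCm38.p6 from RefSeq promoters, at chr9:89199023-89199208 and chr9:88956714-88956899. Capitals mark a match at -100 from the start to TGANTCA, the loose letters searched for an AP-1 motif. N stands for any base and is an a in both genes.

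Bcl2a1b: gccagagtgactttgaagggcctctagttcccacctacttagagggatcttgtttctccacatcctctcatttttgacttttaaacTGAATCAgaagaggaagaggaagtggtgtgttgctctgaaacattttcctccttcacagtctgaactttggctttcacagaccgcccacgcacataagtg

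Bcl2a1a: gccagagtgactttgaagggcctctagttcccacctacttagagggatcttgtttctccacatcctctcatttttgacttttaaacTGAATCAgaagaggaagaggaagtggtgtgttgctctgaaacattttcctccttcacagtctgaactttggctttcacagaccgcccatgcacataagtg

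On either strand, TGANTCA occurs in 6.75% of 32851 RefSeq promoters over the 250 bases before their starts. The window of Bcl2a1d also holds it. It was 1 of 8 motifs searched.

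Bcl2l1, which encodes the antiapoptotic protein BCL-XL, had its highest mean at 6 h and fell from 24 h to 72 h. It read 40.0, 51.2 and 58.6 FPKM in sham and 60.7, 44.96 and 44.8 at 10 min. At 1 h it read 91.4, 95.4 and 42.7, so 2 mice were above the sham range and the mouse numbered 3 within it.

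At 6 h Bcl2l1 reached 161, 174 and 112 FPKM. At 24 h it read 101, 76.7 and 136, and at 72 h 51.9, 57.0 and 54.6. All 6 h and 24 h mice were above all sham mice, and the 72 h mice lay inside the sham range.

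Against sham the log2 fold change of Bcl2l1 was 1.55 ± 0.19 at 6 h (limma adjusted p = 0.00239) and 1.03 ± 0.22 at 24 h (limma adjusted p = 0.0151). From 6 h to 24 h Bcl2l1 differed by -0.52 ± 0.24 on the log2 scale and was not called (limma adjusted p = 0.16), and these groups overlapped. From 24 h to 72 h it fell by 0.89 on the log2 scale (SE 0.19, limma adjusted p = 0.00903), and at 72 h it differed from sham by 0.14 ± 0.13 (limma adjusted p = 0.333). The 24 h call was lost without sham mouse 1 (limma adjusted p = 0.0607) or 2 (limma adjusted p = 0.0537).

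At 1 h the log2 fold change of Bcl2l1 was 0.54 ± 0.30 and was not called (limma adjusted p = 0.51). Without 1 h mouse 3 it was 0.91 with an adjusted p of 0.0465 by limma. The step from 1 h to 6 h was 1.02 ± 0.31 (limma adjusted p = 0.0571).

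Mcl1, whose short-lived antiapoptotic protein is needed by cardiomyocytes and myeloid cells alike, rose at 6 h and stayed up. It read 90.9, 101 and 92.7 FPKM in sham, 97.4, 87.9 and 95.8 at 10 min and 99.6, 118 and 117 at 1 h. The 6 h mice read 208, 145 and 127, the 24 h mice 140, 128 and 218 and the 72 h mice 142, 149 and 173. The 3 late groups overlapped each other and all lay above sham.

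The log2 fold change of Mcl1 was 0.72 ± 0.17 at 6 h (limma adjusted p = 0.0204), 0.73 ± 0.19 at 24 h (limma adjusted p = 0.0267) and 0.70 ± 0.09 at 72 h (limma adjusted p = 0.000101). At 1 h it was 0.23 ± 0.08, with an unadjusted p of 0.0189 and an adjusted p of 0.313 by limma. The 6 h and 24 h calls were lost without any 1 of the sham mice, with limma adjusted p from 0.0549 to 0.0733 at 6 h and from 0.0724 to 0.0915 at 24 h.

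Bcl2, the founding antiapoptotic member, was the only one of the 10 called lower at any time against sham. It read 18.0, 14.97 and 18.3 FPKM in sham and 14.4, 10.9 and 11.8 at 6 h. It read 15.7, 20.6 and 19.5 at 24 h and 24.8, 29.0 and 19.6 at 72 h. All 6 h mice were below all sham mice, the 24 h mice overlapped the sham range, and the 72 h mice were above it.

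On the log2 scale Bcl2 differed from sham by -0.44 ± 0.13 at 6 h (limma adjusted p = 0.0373) and 0.48 ± 0.14 at 72 h (limma adjusted p = 0.0115). The 6 h call was lost without any 1 of the sham mice or without 6 h mouse 2 or 3 (limma adjusted p from 0.0508 to 0.13), with median-of-ratios scaling (limma adjusted p = 0.0812) and without the filter on low FPKM (limma adjusted p = 0.0586). The 72 h call was lost when libraries were rescaled by median-of-ratios (0.18, limma adjusted p = 0.247) or quantile normalized (0.16, limma adjusted p = 0.336). In the 10 min and 1 h groups Bcl2 averaged 15.6 ± 2.03 and 14.7 ± 1.56 FPKM (SD), against 17.1 ± 1.86 in sham, and was not called.

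**Figure D2:**
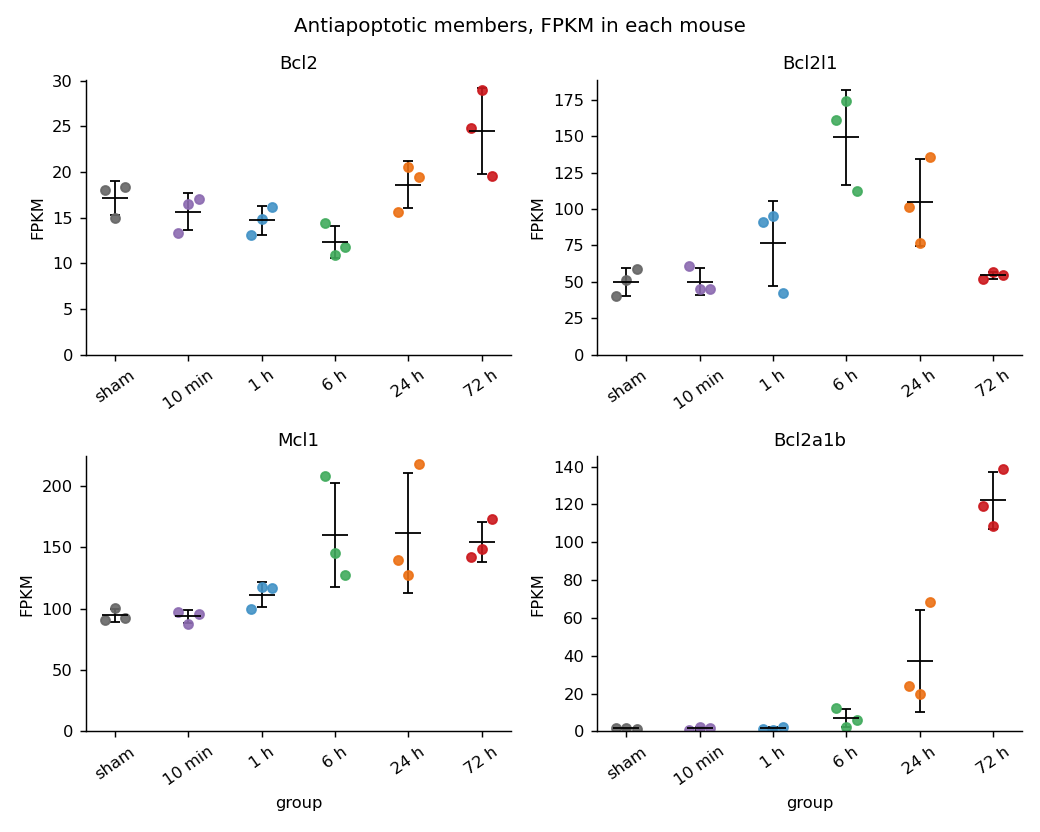
FPKM (y axis, linear, from 0) of the 4 antiapoptotic genes in each of the 18 mice (points) by group (x axis), with horizontal bars at the mean and error bars of 1 SD. The highest group means were at 6 h for Bcl2l1 (112 to 174 FPKM) and at 72 h for Bcl2a1b (109 to 139 FPKM), while Mcl1 held between 127 and 218 FPKM from 6 h on.

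Among the BH3-only genes, Bid was called at 24 h and the other 3 at 72 h, while Bbc3 (limma adjusted p = 0.0524) and Pmaip1 (limma adjusted p = 0.054) lay just past the threshold at 24 h. BID is cut by caspase-8 and so links death receptors to the mitochondria. Bid read 1.01, 1.28 and 2.09 FPKM in sham and 4.67, 2.14 and 2.43 at 6 h. The 24 h mice read 5.11, 4.97 and 9.08 and the 72 h mice 11.3, 13.8 and 11.1. All mice from 6 h on were above all sham mice, with the lowest 6 h mouse just above the highest sham mouse.

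On the log2 scale Bid differed from sham by 0.70 ± 0.25 at 6 h (limma adjusted p = 0.0741), 1.57 ± 0.25 at 24 h (limma adjusted p = 0.00659) and 2.43 ± 0.16 at 72 h (limma adjusted p = 1.9e-06). It rose by a further 0.86 ± 0.21 from 24 h to 72 h (limma adjusted p = 0.0151). That step was not called without 24 h mouse 1 (limma adjusted p = 0.0544) or 72 h mouse 2 (limma adjusted p = 0.0617).

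Bbc3 and Bcl2l11 rose most at 72 h. Bbc3, whose product PUMA is a target of p53, read 12.4, 13.1 and 13.0 FPKM in sham, 15.4, 16.4 and 23.7 at 24 h and 38.5, 36.2 and 42.6 at 72 h. Bcl2l11, whose product BIM is controlled by FOXO factors, read 14.7, 16.9 and 14.6 FPKM in sham, 16.9, 15.98 and 19.1 at 24 h and 30.4, 33.2 and 37.6 at 72 h. Both genes at 72 h lay above all other mice of the series.

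The log2 fold change at 72 h was 1.53 ± 0.08 for Bbc3 (limma adjusted p = 3.46e-07) and 1.08 ± 0.09 for Bcl2l11 (limma adjusted p = 9.94e-06). In the step from 24 h to 72 h Bbc3 rose by 1.06 ± 0.17 (limma adjusted p = 0.00231) and Bcl2l11 by 0.92 ± 0.12 (limma adjusted p = 0.000969). At 24 h Bbc3 was 0.47 ± 0.16 above sham (limma adjusted p = 0.0524), with all 24 h mice above all sham mice. It was called at 24 h without 24 h mouse 3 (0.29, limma adjusted p = 0.0281) and without 24 h mouse 1 (0.59, limma adjusted p = 0.0301). A pseudocount of 0.1 (limma adjusted p = 0.0474), a filter on the mean (limma adjusted p = 0.0484) and all 18 mice in a single fit (limma adjusted p = 0.0179) also gave that call. Bcl2l11 was 0.16 ± 0.10 above sham at 24 h (limma adjusted p = 0.253), a sign that turned with quantile normalization (-0.02).

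Pmaip1, whose product NOXA binds MCL1 and A1, was the lowest of the 10. It read 0.118, 0.0302 and 0.285 FPKM in sham and 0.871, 0.312 and 0.460 at 6 h. The 24 h mice read 1.05, 0.591 and 3.90 and the 72 h mice 2.32, 3.05 and 2.998. It reached 1 FPKM in 5 mice, all at 24 h or 72 h, and so entered the test only through the groups in which it was high. The mice at 6 h, 24 h and 72 h were all above the sham mice.

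The log2 fold change of Pmaip1 was 0.43 ± 0.15 at 6 h (limma adjusted p = 0.069), 1.14 ± 0.39 at 24 h (limma adjusted p = 0.054) and 1.73 ± 0.12 at 72 h (limma adjusted p = 2.56e-06). A pseudocount of 1 shrinks the change of a gene this low, and with 0.1 the 24 h value was 2.73 (limma adjusted p = 0.0204). With all 18 mice in a single fit Pmaip1 was also called at 24 h (limma adjusted p = 0.00315). Without 24 h mouse 3 the 24 h value was 0.66 (limma adjusted p = 0.0162) and without 24 h mouse 2 it was 1.48 (limma adjusted p = 0.0321). Without 6 h mouse 2 the 6 h value was 0.54 (limma adjusted p = 0.0403). The 72 h and 24 h levels differed by 0.58 ± 0.38 (limma adjusted p = 0.252), and without 24 h mouse 3 it was 1.06 (limma adjusted p = 0.000977).

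Both effector genes rose and stayed up. Bax read 23.9, 23.6 and 26.0 FPKM in sham, 22.8, 23.4 and 23.0 at 10 min, 19.5, 19.0 and 24.3 at 1 h and 29.1, 29.5 and 29.1 at 6 h. It read 43.6, 54.5 and 81.5 at 24 h and 68.7, 79.6 and 74.2 at 72 h. The 6 h mice were tightly grouped just above sham, while the 24 h and 72 h groups overlapped through 24 h mouse 3.

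Against sham, Bax rose by 0.25 ± 0.07 on the log2 scale at 6 h (limma adjusted p = 0.0424), 1.21 ± 0.21 at 24 h (limma adjusted p = 0.00801) and 1.56 ± 0.07 at 72 h (limma adjusted p = 3.07e-07). The 6 h call was lost without any 1 of the sham mice or without 6 h mouse 1 or 2 (limma adjusted p from 0.064 to 0.155). It was also lost with all 18 mice in a single fit (limma adjusted p = 0.23), with equal FPKM sums (limma adjusted p = 0.0559) and without the variance trend (limma adjusted p = 0.0528). From 1 h to 6 h Bax rose by 0.47 ± 0.11 (limma adjusted p = 0.0236), the only member called in that step, where 9.32% of all genes were called higher and 11.2% lower. That call was lost without 1 h mouse 1 (limma adjusted p = 0.0844) or 2 (limma adjusted p = 0.0967).

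Bak1 read 17.8, 13.8 and 18.2 FPKM in sham and 15.5, 15.5 and 16.3 at 6 h. It then read 24.4, 29.0 and 34.6 at 24 h and 45.8, 49.4 and 46.9 at 72 h. Up to 6 h Bak1 stayed within the range of sham, and the 24 h and 72 h groups stood clear of sham and of each other. The log2 fold change was 0.78 ± 0.16 at 24 h (limma adjusted p = 0.0123) and 1.47 ± 0.10 at 72 h (limma adjusted p = 2.67e-06).

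From 6 h to 24 h, Bax (0.96 ± 0.21, limma adjusted p = 0.0318), Bak1 (0.84 ± 0.14, limma adjusted p = 0.0195) and Bcl2a1b were the 3 members called higher, beside 12.5% of all genes higher and 1.94% lower. For Bax and Bak1 these calls were lost without any 1 of the 6 h mice or without 24 h mouse 2, with limma adjusted p from 0.057 to 0.102 and values from 0.83 to 1.00. The call of Bax was also lost with median-of-ratios scaling (limma adjusted p = 0.0719), quantile normalization (limma adjusted p = 0.0633) and no filter (limma adjusted p = 0.0559). From 24 h to 72 h, 5 members were called higher and Bcl2l1 lower, beside 29.7% and 13.5% of all genes. Bak1 rose by 0.69 ± 0.14 in that step (limma adjusted p = 0.00601). Bax differed by 0.35 ± 0.21 (limma adjusted p = 0.222), and by 0.59 without 24 h mouse 3 (limma adjusted p = 0.0054).

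**Figure D3:**
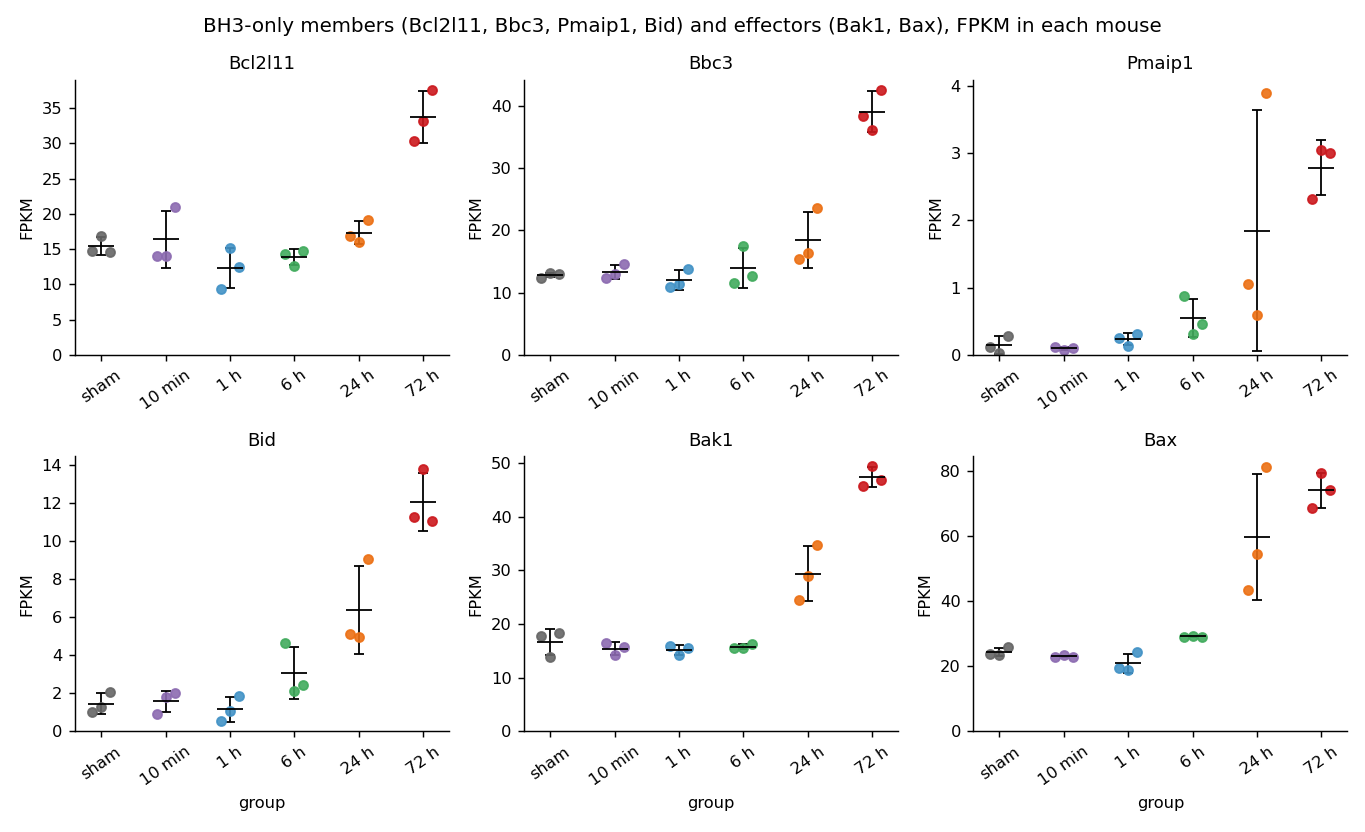
FPKM (y axis, linear, from 0) of the 4 BH3-only genes and the 2 effectors in each of the 18 mice (points) by group (x axis), with horizontal bars at the mean and error bars of 1 SD. At 24 h Bbc3 lay at 15.4 to 23.7 FPKM, above all sham mice but not called, and Bcl2l11 overlapped sham. At 72 h Bbc3 and Bcl2l11 lay at 36.2 to 42.6 and 30.4 to 37.6 FPKM, while Bax and Bak1 were already called above sham at 24 h.

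The balance among members also differed between groups. Of the summed FPKM of the 4 antiapoptotic genes, Mcl1 held 58.1% ± 3.34 (SD, n = 3) and Bcl2l1 30.4% ± 3.90 in sham. At 6 h Bcl2l1 held 45.5% ± 6.06 and Mcl1 48.5% ± 4.55. At 72 h Bcl2a1b, with 0.975% ± 0.276 in sham, held 34.3% ± 2.30, and Bcl2l1 15.4% ± 1.22.

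The sum of the 4 antiapoptotic genes was 163 ± 11.1 FPKM in sham, 329 ± 68.8 at 6 h and 356 ± 26.1 at 72 h. Bax and Bak1 together were 41.1 ± 3.42 in sham, 45.0 ± 0.373 at 6 h and 122 ± 7.27 at 72 h. The antiapoptotic sum divided by that of the BH3-only and effector genes was 2.30 ± 0.150 in sham, 4.30 ± 0.894 at 6 h, 2.41 ± 0.343 at 24 h and 1.70 ± 0.0983 at 72 h. The 6 h mice (3.41 to 5.19) were all above the sham mice (2.16 to 2.46), and the 72 h mice (1.60 to 1.79) all below them. These are descriptions of RNA levels, without a test.

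The ratio of Bax to Bcl2 FPKM, often used as an index of apoptotic readiness, was 1.33, 1.58 and 1.42 in sham. It was 2.03, 2.69 and 2.48 at 6 h. The 24 h mice had ratios of 2.78, 2.64 and 4.18 and the 72 h mice of 2.77, 2.75 and 3.79. All mice from 6 h on were above all sham mice. At 6 h the ratio combined a lower Bcl2 with a slightly higher Bax, and both calls were lost without any 1 of the sham mice. At 72 h both genes were above sham, with the Bcl2 call lost under median-of-ratios and quantile scaling. The antiapoptotic sum divided by the BH3-only and effector sum was also above sham at 6 h. By these RNA ratios the balance thus shifted in opposite directions at that time.

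**Figure D4:**
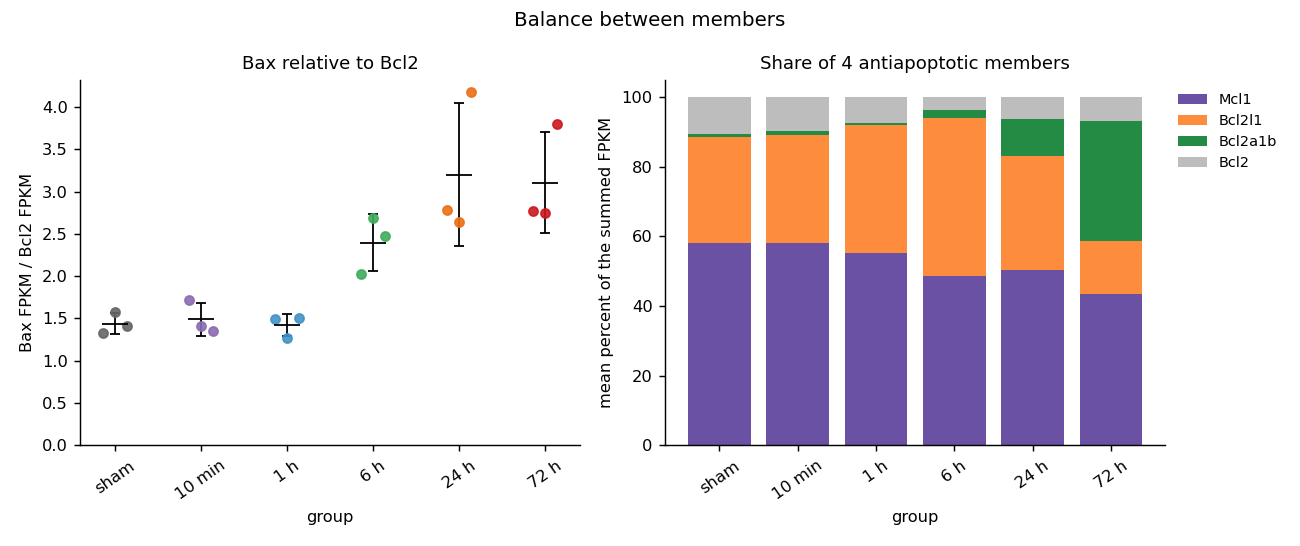
Left, Bax FPKM divided by Bcl2 FPKM (y axis, from 0) in each mouse by group (x axis), with the mean and 1 SD. Right, mean percent of the summed FPKM of 4 antiapoptotic genes by group (stacked bars, 3 mice each), in which Bcl2a1b went from 0.975% in sham to 34.3% at 72 h and Bcl2l1 from 45.5% at 6 h to 15.4% at 72 h.

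Leukocyte markers moved with several members. The summed FPKM of 6 pan-leukocyte genes (Ptprc, Laptm5, Coro1a, Cd53, Cd52 and Lcp1) was 53.9 to 75.6 in sham, 72.6 to 248 at 6 h, 297 to 669 at 24 h and 995 to 1158 at 72 h. All 6 were called higher at 24 h and at 72 h, and 2 of 6 at 6 h, beside 26.2%, 53.1% and 11.6% of all genes. Ptprc reached 1 FPKM in no sham mouse, so it entered the test through AMI mice alone. Across the 18 mice the log2 level of Bcl2a1b correlated with that sum at r = 0.99, Bid at 0.97, Bax at 0.96, Pmaip1 at 0.95, Bak1 at 0.94, Bbc3 at 0.87 and Bcl2l11 at 0.81. For Bbc3 and Bcl2l11 the sums of other cell types gave larger values, with r = 0.95 and 0.91 for monocyte and macrophage markers, 0.90 and 0.90 for fibroblast markers and -0.94 and -0.90 for cardiomyocyte markers. Bak1 gave 0.96 for monocyte and macrophage markers and -0.94 for cardiomyocyte markers. Cardiomyocyte markers gave -0.92 for Bcl2a1b, -0.90 for Bid, -0.89 for Pmaip1 and -0.88 for Bax. Bcl2 gave 0.69 for the pan-leukocyte sum, 0.78 for monocyte and macrophage, 0.76 for fibroblast and -0.75 for cardiomyocyte markers. The points share the group steps in time, so these correlations are descriptions. The parts of entering leukocytes and of lower cardiomyocyte RNA in the rises were not tested.

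Bcl2l1 stood apart from this pattern, with r = 0.14 for the pan-leukocyte sum and 0.78 for the neutrophil sum, and Mcl1 gave 0.75 and 0.88. Summed neutrophil markers (S100a8, S100a9, Csf3r, Cxcr2, Retnlg and Mmp9) were 2.56 to 5.28 FPKM in sham, 1001, 117 and 377 at 6 h and 54.9 to 67.8 at 72 h. At 6 h 6 of 6 were called higher, beside 11.6% of all genes. Of the 6 markers, Csf3r, Cxcr2, Retnlg and Mmp9 reached 1 FPKM only in mice from 6 h on. The 6 h mouse with the lowest neutrophil sum, 117, had the highest Bcl2l1, 174 FPKM. The 1 h mice with Bcl2l1 at 91.4 and 95.4 FPKM had neutrophil sums of 30.5 and 17.1, and the 1 h mouse at 42.7 had 20.6. At 24 h both followed the same order, with neutrophil sums of 45.2, 216 and 996 in the mice with Bcl2l1 at 76.7, 101 and 136 FPKM. The part of neutrophils in the changes of Bcl2l1 and Mcl1 was not tested.

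Other cell types moved as well. At 6 h 11.6% of all genes were called higher and 16.8% lower. The shares were 26.2% and 11.4% at 24 h, and 53.1% and 24.2% at 72 h. Monocyte and macrophage markers summed to 191 to 216 FPKM in sham, 497 to 800 at 24 h and 3470 to 4594 at 72 h, with 7 of 7 called higher at both times. Of these markers, Ccr2 reached 1 FPKM only in mice from 6 h on and Ms4a7 only at 24 h and 72 h. Both thus entered the test through the groups in which they were high. Fibroblast markers went from 235 to 256 in sham to 2766 to 3531 at 72 h, with 6 of 6 called higher, and 6 of 6 cardiomyocyte markers were called lower at 72 h and 3 of 6 at 24 h. Endothelial sums lay between 448 and 687 in all groups, with 1 of 6 markers called higher and 2 lower at 6 h and 3 lower at 24 h and at 72 h (Emcn, Kdr and Tie1). Lymphocyte sums were 1.44 to 1.76 in sham and 3.86 to 5.52 at 72 h, when both markers tested, of 6 listed, were called higher. Their part in the members' changes was not tested.

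**Figure D5:**
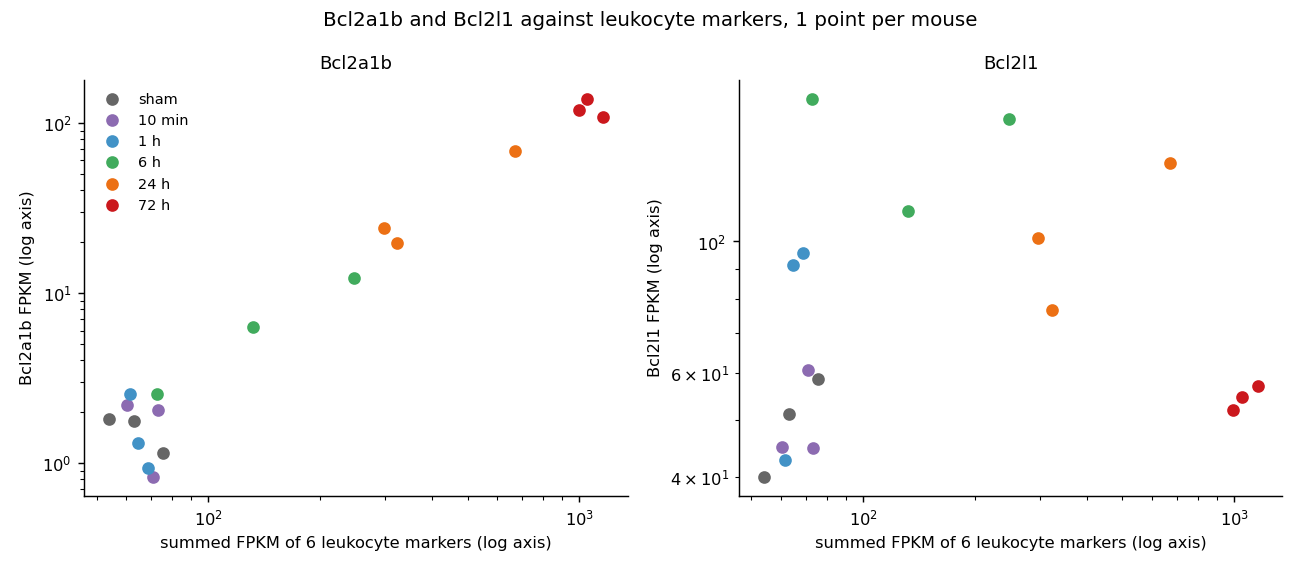
FPKM of Bcl2a1b (left) and Bcl2l1 (right) (y axes, log scale) against the summed FPKM of 6 leukocyte markers (x axes, log scale), 1 point per mouse, colored by group. Bcl2a1b was higher in mice with a higher marker sum (r = 0.99 over 18 mice on log scales), while Bcl2l1 had its highest mean in the 6 h mice (marker sums 72.6 to 248) and lay at 51.9 to 57.0 FPKM in the 72 h mice (995 to 1158).

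The members resembled each other unequally across the 18 mice. Bcl2a1b and Bid correlated at r = 0.97, Bcl2a1b and Bax at 0.97, Bid and Bax at 0.96 and Bak1 and Bax at 0.95. Bcl2l1 correlated at 0.63 with Mcl1 and at -0.47 with Bcl2. These values too are descriptions over mice that share their groups.

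Of all tested genes, those most like Bcl2a1b over the 18 mice by Pearson r of log2(FPKM + 1) included Rac2 and Lgals3 (each 0.99). Those most like Bcl2l1 were Cdc42ep4 (0.95), Map3k6 (0.94) and Pxdc1 (0.93), and like Mcl1 Cd14, Zc3h12a (0.96 each) and Plk3 (0.95). For Bcl2 they were Unc5b (0.94), Chst7 (0.93) and Chd4 (0.92). For Bid they were Bin2, Shc1 and Casp8 (0.98 each), and for Pmaip1 Mefv (0.99), Fgd3 and Rab32 (0.98 each). For Bbc3 they were Mkrn1, Limd2 and Asl (0.98 each), and for Bcl2l11 Parn (0.96), Zfp111 and Wdr81 (0.95 each). For Bax they were Mfsd5, Slc39a7 and Arhgdia (0.99 each), and for Bak1 Mydgf, Psmd8 and Sec13 (0.99 each).

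Other family genes were counted in the same way. Of 5 other antiapoptotic genes 3 were tested, and 3 were called higher at 24 h and 2 at 72 h, all A1 copies but for Bcl2l2 at 24 h (0.25 ± 0.08, limma adjusted p = 0.0422), named after its value was seen. Of all genes, 26.2% and 53.1% were called higher at these times. The A1 copies passed the filter through late groups, as above. Of 5 other effector-like genes 3 were tested, and at 72 h 1 was called higher and 1 lower, beside 53.1% and 24.2% of all genes. Bok, a BAX-like effector, rose by 2.60 ± 0.12 (limma adjusted p = 2.83e-07) from a mean of 10.3 to 67.1 FPKM. Bcl2l13, a mitophagy receptor, fell by 0.54 on the log2 scale (SE 0.06, limma adjusted p = 6.76e-05).

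Of 7 further BH3 genes 6 were tested, with 1 called higher at 6 h, 1 at 24 h, and 5 higher and 1 lower at 72 h. Of all genes, 11.6%, 26.2% and 53.1% were called higher at those times, and 24.2% lower at 72 h. The BH3-only genes Bmf and Bad rose by 1.10 ± 0.12 and 0.84 ± 0.08 at 72 h. Bnip3, a hypoxia-induced mitophagy gene, rose by 0.66 ± 0.12 at 6 h (limma adjusted p = 0.0084) and fell by 0.67 on the log2 scale at 72 h (limma adjusted p = 3.23e-05). Its relative Bnip3l rose by 0.49 ± 0.07 at 72 h (limma adjusted p = 0.000206).

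Downstream of the family, 13 genes of the mitochondrial pathway divided at 72 h into 6 called higher and 7 lower. The apoptosome gene Apaf1 rose by 1.75 ± 0.11. The mitochondrial nuclease gene Endog fell by 1.27 and the outer membrane channel gene Vdac1 by 1.09 on the log2 scale. The list median was -0.46, against 0.29 over all genes, of which 53.1% were called higher and 24.2% lower.

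Of 6 genes of inhibitors of apoptosis (IAP), 1 was called higher and 1 lower at 6 h, and 4 higher at 72 h, beside 11.6%, 16.8% and 53.1% of all genes. The latter were Birc5 (1.47 ± 0.08), also a mitotic gene, Naip2 (1.41 ± 0.08), an inflammasome sensor, Birc3 (1.21 ± 0.11) and Xiap (0.31 ± 0.07). Birc5 reached 1 FPKM only in the 72 h mice and Naip2 in 5 mice, all from 6 h on, so both entered the test through the groups in which they were high. Birc3, an NF-kappaB target, was also called at 6 h (1.06 ± 0.20, limma adjusted p = 0.0101).

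Of 8 genes of the extrinsic pathway, which starts at death receptors, 5 were called higher and 1 lower at 6 h, beside 11.6% and 16.8% of all genes. At 24 h and at 72 h 6 were called higher, beside 26.2% and 53.1%. Tnfrsf1a, the receptor for TNF, rose by 1.29 ± 0.10 at 6 h (limma adjusted p = 0.000475). Casp8, whose product cuts BID, rose by 0.77 ± 0.17 at 6 h (limma adjusted p = 0.0161) and by 1.98 ± 0.09 at 72 h. Ripk1 and Tradd, the adaptors of that receptor, rose by 1.73 ± 0.11 and 1.68 ± 0.10 at 72 h.

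Of 11 regulators upstream of the family 1 was called higher at 1 h, 4 at 6 h and 5 at 24 h, beside 0.669%, 11.6% and 26.2% of all genes. The 7 called higher and 2 lower at 72 h stand beside 53.1% and 24.2% of all genes. Cdkn1a, a p53 target and cell cycle inhibitor, was already up at 1 h (1.73 ± 0.27, limma adjusted p = 0.0401) and reached 3.93 ± 0.21 at 6 h (limma adjusted p = 0.00015). Atf4, a factor of the integrated stress response, rose by 1.08 ± 0.16 at 6 h (limma adjusted p = 0.00443). E2f1, a cell cycle factor, rose by 2.14 ± 0.11 at 72 h (limma adjusted p = 3.66e-07), and reached 1 FPKM only in 24 h and 72 h mice.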

How the data were processed

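Values were deposited by the authors as FPKM per gene symbol. Per the labels and methods they trimmed reads with cutadapt 1.18, mapped them to mm10 with HISAT2 2.1.0 and quantified them with StringTie 1.3.4d. The annotation is not given in the sources used here. FPKM divide by transcript length and library total, so a shift in a few abundant genes moves all others.

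Of 24419 symbols, 13333 reached 1 FPKM in 1 or more of 18 mice. Genes constant over the mice compared were left out. Each comparison was fitted on its own 6 mice by limma 3.58.1 in R 4.3.3 on log2(FPKM + 1) with a variance trend, two-sided, and p-values were adjusted by Benjamini-Hochberg across every gene tested. The script was tested on simulated data. Python 3.11.15 with numpy 2.4.6, pandas 2.3.3 and matplotlib 3.10.9 did the rest. The cufflinks test of the authors needs reads and was not repeated.

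The members, marker lists and pathway lists were chosen with earlier results of these data known. Named were the 10 members, all Bcl2a1 copies, at most 4 genes per pathway list with the largest change among those called at 72 h, and for each member the 3 genes of highest Pearson r (predicted genes and other members left out). Some genes that this rule names are not reported here. Replicate numbers are those of the titles, and 2 spellings of column names were matched to titles by time and number. Promoter sequences are from RefSeq on GRCm38.p6, where 1 of the 10 members was not matched.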

Additional observations from a re-analysis of the deposited data

Results flagged for a closer look

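Some members differed between successive time points by limma's direct test of the later against the earlier mice. From 1 h to 6 h this was Bax, with a log2 difference of 0.47. From 6 h to 24 h these were Bcl2a1b (2.24), Bak1 (0.84) and Bax (0.96). From 24 h to 72 h these were Bcl2a1b (1.90), Bcl2l11 (0.92), Bbc3 (1.06), Bid (0.86) and Bak1 (0.69), which were higher, and Bcl2l1, which was lower (-0.89).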

How the results depend on the processing

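Leaving out 1 mouse at a time gave 0 to 1 members called higher at 1 h, 1 to 4 higher and 0 to 1 lower at 6 h, 4 to 8 higher at 24 h and 9 higher at 72 h in every case. For 6 h against 1 h the range was 0 to 2 higher, for 24 h against 6 h 0 to 3, and for 72 h against 24 h 4 to 7. Replicate numbers did not pair the mice: of 45 pairs of same-numbered mice, 5 deviated together with r over 0.1. With the replicate block, 3 members instead of 1 were called higher from 1 h to 6 h and 0 instead of 3 from 6 h to 24 h, where the block left 1 gene of 13328 called higher and 0 lower. The calls not made with the block were Bax at 6 h (limma adjusted p = 0.105) and, from 6 h to 24 h, Bcl2a1b (0.0786), Bak1 (0.077) and Bax (0.0809).

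At 6 h, 2 members were called higher with an added ratio of mean FPKM over 2, and 0 lower with either ratio rule, without a filter and with median-of-ratios scaling. From 1 h to 6 h, 2 were called higher with a pseudocount of 0.1, with quantile normalization and with an unadjusted p under 0.05 and a ratio over 2, 3 with a filter on the mean, 5 with all 18 mice in a single fit and 0 with the adjusted p and ratio. From 6 h to 24 h, 1 was called higher without a filter and with either median-of-ratios or quantile scaling, and 6 with all 18 mice in a single fit. The count of all genes called higher in that step was 1664 as reported, 976 without a filter, 403 and 369 with those scalings and 4848 with all 18 mice, so the members' count moved with that of all genes. From 24 h to 72 h, 2 were called higher and 0 lower with either ratio rule. The cause was not tested.

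Signs of the members turned only for values that were called in neither setting. With median-of-ratios scaling these were Bcl2l1 at 10 min (-0.0116) and 72 h (-0.17), Bak1 at 6 h (0.0366), Bcl2 at 24 h (-0.0285) and Mcl1 from 6 h to 24 h (-0.24). With quantile normalization they were Bcl2 (-0.0774) and Bcl2l11 (-0.0214) at 24 h, Bcl2l1 at 72 h (-0.0483) and Mcl1 from 6 h to 24 h (-0.0733). With equal FPKM sums they were Mcl1 at 10 min (0.00393) and from 24 h to 72 h (0.0476). Of 480 values of single genes with 1 mouse left out, 26 turned sign, and of 720 under other settings 11.

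With 1 mouse left out, the values that turned sign at 10 min ranged from -0.139 to 0.131 for Bcl2l1, -0.0456 to 0.0287 for Mcl1, -0.118 to 0.286 for Bcl2a1b, -0.122 to 0.153 for Bcl2l11, -0.0149 to 0.0916 for Bbc3, -0.13 to 0.029 for Pmaip1 and -0.0688 to 0.261 for Bid. At 1 h they ranged from -0.277 to 0.16 for Bcl2a1b and -0.439 to 0.00632 for Bid, and at 6 h from -0.0701 to 0.209 for Bbc3 and -0.18 to 0.00773 for Bak1. Bcl2l1 at 72 h ranged from -0.0088 to 0.262, and Mcl1 from -0.227 to 0.209 for 24 h against 6 h and from -0.18 to 0.203 for 72 h against 24 h. Leaving out 1 mouse was added for the A1 copies after seeing the data. For 72 h against 24 h, Bcl2a1a then ranged from -0.637 to 0.528 and Bcl2a1d from -0.36 to 0.335, both positive only without 24 h mouse 3, where Bcl2a1a was called (limma adjusted p = 0.0449) and Bcl2a1d was not (limma adjusted p = 0.0847).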
